A study of Mus musculus with 3 samples.

Results

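The regions described here were the accessible sites around 6 genes for transcription factors of the endoderm, Foxa1, Foxa2, Foxa3, Sox17, Hhex and Hnf4a, in mouse epiblast-like cells. ATAC-seq, an assay in which a transposase inserts sequencing adapters into open chromatin, gave the accessible sites, which were deposited as 1 list of broad peaks for each of 3 samples. A peak was taken as a member when it overlapped the body of 1 of the 6 genes or the 50 kb on either side, by the GENCODE M21 annotation of mm10. This gave 191 of 391711 peaks, of which SOX2-ON held 61 of its 129843, SOX2-OFF 61 of its 131520 and CEpiLC 69 of its 130348. Peaks that touched, in the same list or between lists, were joined, which left 93 of 219473 merged regions.

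All cells were derivatives of mouse embryonic stem cells of the HM1 line, strain 129, collected at 72 h. SOX2-ON and SOX2-OFF came from a line with both endogenous Sox2 alleles ablated and a Sox2 transgene at the Hprt locus that responds to doxycycline through an rtTA expressed from Rosa26. The stem cells of this line were grown with 1 µg/ml doxycycline, which was kept during differentiation in SOX2-ON and withdrawn in SOX2-OFF. CEpiLC, the caudal epiblast-like control, was wild type for Sox2 and came from the parental TetON line, which carries the rtTA. It differs from the others at least by the ablation of endogenous Sox2 and by the transgene. No doxycycline is listed for CEpiLC, so a difference in exposure to doxycycline cannot be told apart from these differences. All 3 received 10 ng/ml bFGF and 5 µM LGK974, an inhibitor of WNT secretion, for 2 days, and then the same with CHIR99021, a GSK3 inhibitor that activates WNT signalling, until day 3. Each group was 1 sample, so there was no replicate error to judge a difference by, no test was run, and every comparison below is between 3 libraries.

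Definitive endoderm, which forms the lining of the gut, the liver and the pancreas, arises from anterior primitive streak cells under Nodal and WNT signalling. Foxa proteins are forkhead factors known for binding compacted nucleosomal DNA ahead of other factors, and Foxa2 also marks the node and the anterior streak. Sox17 is an HMG-box factor required for endoderm, Hhex is a homeodomain factor of the anterior endoderm and the early liver, and Hnf4a is a nuclear receptor of visceral endoderm and liver. Setting SOX2-ON against SOX2-OFF addressed how the chromatin at these genes differed with continued doxycycline, which induces the transgene, during exposure to CHIR99021. An effect of doxycycline itself cannot be told apart from that of SOX2 in this comparison. The comparisons with CEpiLC addressed how each state stood against the wild type.

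Before the values, the central 200 bp of 7 regions are shown, because these sites away from starts were among those that differed most between the lists in presence or in rank. They were read from the GRCm38 reference, the build of mm10, on its plus strand. Capitals mark an exact match to a motif that was searched (CTTTGAT for TCF/LEF, TTTATTG for CDX or AGATAAG for GATA), and a sequence without capitals held none of the 8 motifs. Distances are from the 5′ end of the gene to the middle of the region. Foxa1, Foxa2 and Sox17 lie on the minus strand, so that their upstream sites have the higher coordinates.
Foxa1 25.3 kb upstream, in an intron of Ttc6, chr12:57572133-57572332: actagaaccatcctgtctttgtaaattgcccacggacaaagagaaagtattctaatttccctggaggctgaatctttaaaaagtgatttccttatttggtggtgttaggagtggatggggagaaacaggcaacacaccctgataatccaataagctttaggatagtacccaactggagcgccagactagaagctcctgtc
Foxa1 31.0 kb downstream, intergenic, chr12:57515771-57515970: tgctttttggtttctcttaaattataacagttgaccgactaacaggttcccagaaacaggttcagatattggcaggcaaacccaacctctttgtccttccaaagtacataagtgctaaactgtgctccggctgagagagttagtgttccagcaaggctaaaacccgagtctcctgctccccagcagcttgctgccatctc
Foxa2 13.8 kb upstream, intergenic, chr2:148060716-148060915: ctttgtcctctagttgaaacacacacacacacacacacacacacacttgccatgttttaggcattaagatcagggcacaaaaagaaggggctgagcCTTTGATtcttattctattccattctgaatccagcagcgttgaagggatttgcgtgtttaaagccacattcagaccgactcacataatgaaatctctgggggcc
Foxa2 18.9 kb upstream, intergenic, chr2:148065773-148065972: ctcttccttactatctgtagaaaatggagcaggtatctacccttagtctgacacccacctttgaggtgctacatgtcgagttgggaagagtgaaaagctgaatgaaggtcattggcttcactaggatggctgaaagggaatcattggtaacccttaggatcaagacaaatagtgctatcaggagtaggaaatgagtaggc
Foxa2 41.6 kb downstream, in an intron of 9030622O22Rik, chr2:148005225-148005424: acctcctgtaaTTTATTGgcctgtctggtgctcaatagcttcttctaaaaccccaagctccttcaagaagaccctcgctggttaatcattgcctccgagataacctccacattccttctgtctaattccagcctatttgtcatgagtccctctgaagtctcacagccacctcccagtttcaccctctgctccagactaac
Sox17 40.5 kb upstream, intergenic, chr1:4537796-4537995: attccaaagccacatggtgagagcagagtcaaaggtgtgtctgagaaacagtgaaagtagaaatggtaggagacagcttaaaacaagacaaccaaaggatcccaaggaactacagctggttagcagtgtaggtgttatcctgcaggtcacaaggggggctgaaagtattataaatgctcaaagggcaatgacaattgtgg
Hnf4a 45.8 kb downstream, in an exon of Hnf4a and the intron beside it, chr2:163552555-163552754: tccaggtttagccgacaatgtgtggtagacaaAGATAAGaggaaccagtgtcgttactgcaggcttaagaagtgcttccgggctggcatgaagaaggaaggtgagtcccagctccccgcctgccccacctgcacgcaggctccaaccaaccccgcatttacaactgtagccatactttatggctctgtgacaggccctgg

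The lists held similar numbers of peaks but not the same signal. The median peak width was 621, 741 and 526 bp in SOX2-ON, SOX2-OFF and CEpiLC, and the peak at rank 20000 had a −log10 p of 26.4, 21.2 and 10.6. Read totals were not used here, so the depth is unknown, and since p-values depend on depth and fold enrichments on the background of each library, neither was compared between lists. Instead each peak was given a percentile, the share of the other peaks of its own list with a lower −log10 p, so that a value near 100 is among the strongest, and a region took the percentile of its strongest peak. A region without a peak was not detectable as a peak at the depth of that library, which does not show that it was closed. Chromosomes 6, 8 and 11 carried an excess of peaks that was unequal between the lists. Without them 87166, 88032 and 96094 peaks were left in SOX2-ON, SOX2-OFF and CEpiLC. None of the 6 genes lies on them, but their peaks entered the ranking. Ranked without them, the 5′ starts of Sox17 stood at 46.7, 70.9 and 81.4 instead of 54.3, 75.4 and 82.9. Genome shares of regions by presence, rank difference or width are therefore given with and without these chromosomes where they differ. Shares for a range of percentiles are given without them. Among the marker genes, the peak at the start of Sox2 stood at percentiles 92.5, 91.0 and 90.4 in SOX2-ON, SOX2-OFF and CEpiLC. This start did not separate the states, so it was no check of the labels. The streak gene T stood at 83.7, 91.4 and 89.4 and the caudal gene Cdx2 at 84.5, 89.6 and 92.3, while the naive pluripotency gene Klf4 stood at 94.2, 90.5 and 87.3. All marker genes examined, those of feeder fibroblasts included, had a peak at a start in every list.

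Around the 6 genes, sites open in all states were the most frequent class. Of the 93 merged regions, 36 held a peak in all 3 lists (38.7%, Wilson 95% interval 29.4 to 48.9%), beside 27% of all merged regions and 31.3% without chromosomes 6, 8 and 11. Of these 36, 14 lay at the start of another gene, and without such regions 22 of 74 (29.7%) were in all lists. Away from every annotated start, a setting added after seeing the data, 19 of 69 regions (27.5%) were, beside 20.5% of all such regions and 23.9% outside chromosomes 6, 8 and 11. Regions of SOX2-ON alone numbered 11 (background 16.9%, or 16.6% without those chromosomes), those of SOX2-OFF alone 11 (background 15.1%, or 13.3%) and those of CEpiLC alone 15 (background 20.3%, or 19.8%), which is 11.8%, 11.8% and 16.1% of the 93. The intervals cover counting error only, since regions are not replicates. Each share of regions of a single list around the 6 genes was below that of the genome, and the intervals of SOX2-OFF and CEpiLC included it, as did that of SOX2-ON (6.73 to 19.9%). Another 6 regions were in SOX2-ON and SOX2-OFF without CEpiLC, 7 in SOX2-OFF and CEpiLC without SOX2-ON, and 7 in SOX2-ON and CEpiLC without SOX2-OFF, beside 10.5%, 6.92% and 3.28% of all merged regions and 6.55%, 8.59% and 3.83% of those outside the 3 chromosomes.

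**Figure D1:**
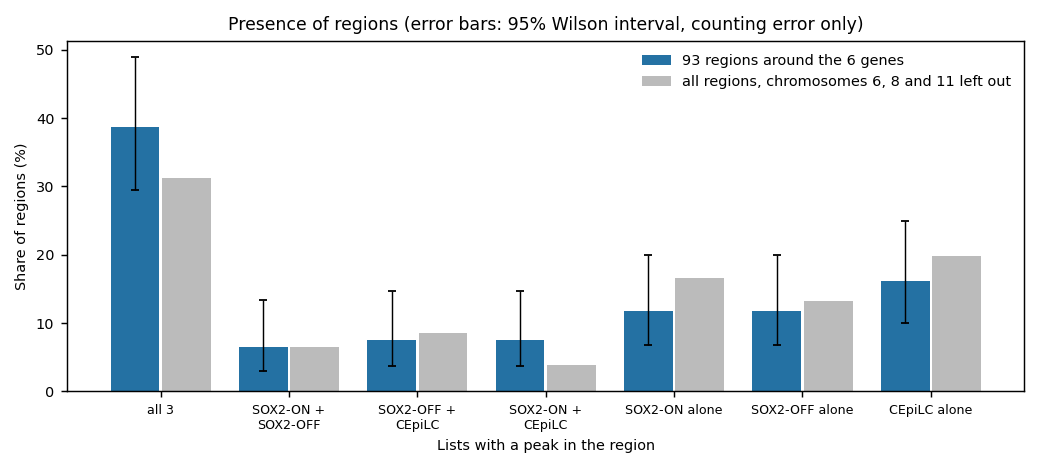
Share of merged regions, in percent, by the lists that hold a peak in them, for the 93 regions around the 6 genes (blue, with 95% Wilson intervals for counting error) and for all regions outside chromosomes 6, 8 and 11 (grey). Regions in all 3 lists made up 38.7% around the 6 genes and 31.3% of all regions outside those chromosomes, and the grey bar lies within the blue interval in that class.

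Between SOX2-ON and SOX2-OFF, 18 sites in each direction were found in 1 list and not in the other, an equality that held under some other settings and not under others. SOX2-ON had 18 of its 60 regions absent from SOX2-OFF (30%, against 34.9% over the genome and 35% without chromosomes 6, 8 and 11), and SOX2-OFF likewise had 18 of 60 absent from SOX2-ON (30%, against 37% and 36.7%). With windows of 20 kb both counts were 9, and with each peak replaced by 500 bp at its midpoint both were 20. With windows of 100 kb these counts were 27 and 35, and with a −log10 q of at least 2 they were 11 and 7. Against the wild type, 17 of 60 SOX2-ON regions (28.3%) and 17 of 60 SOX2-OFF regions (28.3%) had no peak in CEpiLC, with genome shares of 47.5% and 43% that fell to 39.7% and 33.3% without chromosomes 6, 8 and 11. CEpiLC in turn had 22 of 65 regions (33.8%) absent from SOX2-ON and 22 of 65 absent from SOX2-OFF, against 47.3% and 41%, or 44.7% and 37.2% without those chromosomes. All of these shares were below the background, and with all chromosomes counted the Wilson interval left it out for SOX2-ON and SOX2-OFF regions absent from CEpiLC (18.5 to 40.8% each) and for CEpiLC regions absent from SOX2-ON (23.5 to 46.0%). Without chromosomes 6, 8 and 11, the background was inside the interval in all 6 comparisons.

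The starts of 5 of the 6 genes were accessible in every list, and Hnf4a was the exception. A start was called accessible when a peak lay within 1 kb of it, which held for 74.9%, 75.8% and 76.3% of 21911 coding genes in SOX2-ON, SOX2-OFF and CEpiLC. The strongest were at Hhex, with percentiles 97.7, 95.9 and 96.7 in that order, and at Foxa3, with 96.6, 96.2 and 94.8, although the peak of Foxa3 also covers the start of its neighbour Sympk, a component of the RNA 3′ end processing machinery. Both ranks varied less across the lists than at any other start with a peak in all 3. A start of another gene, Gm38345, also lay in or within 1 kb of the Hhex region. At Foxa2 the percentiles were 89.0, 93.3 and 93.5, and the strongest peak at the start was 1272, 2185 and 1183 bp wide in SOX2-ON, SOX2-OFF and CEpiLC. CEpiLC had a further peak of 1096 bp in the same region, so that the summed widths there were 1272, 2185 and 2279 bp. At Foxa1 they were 85.1, 84.5 and 72.9, so that here CEpiLC had the lowest rank. When peaks were ranked by fold enrichment instead of p, the start of Foxa1 stood at 74.6, 69.6 and 19.6, with the same order.

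Sox17 showed the clearest order of the states at a start. Its 5′ starts lay in a region with percentiles 54.3, 75.4 and 82.9 in SOX2-ON, SOX2-OFF and CEpiLC, and with widths of 1060, 1508 and 1494 bp. A start of another gene, Gm37587, also lay in or within 1 kb of that region. SOX2-ON was the lowest on both measures, and ranking by fold enrichment gave 7.39, 56.7 and 77.2. The region of the internal starts of Sox17, centred 4.6 kb downstream, was strong in all lists, at 92.2, 93.9 and 95.7, with widths of 2068, 2076 and 2114 bp. The order SOX2-ON, SOX2-OFF, CEpiLC was thus the same at both, but the gap was small at the internal starts.

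Hnf4a has alternative promoters, and none was accessible in all states. Its distal start, the 5′ end of the annotated gene, carried a peak of 507 bp at percentile 24.2 in SOX2-ON and none in the other lists. Of SOX2-ON regions at this strength (percentiles 20 to 30), 40.9% had no peak in another list, a share that, like the others given for a range of percentiles, was taken outside chromosomes 6, 8 and 11. The downstream starts at 163546817 to 163547188 of chromosome 2 and the internal start at 163550083 had no peak within 1 kb in any list. At Hhex, the region of an internal start, centred 2.3 kb downstream, had a peak in SOX2-OFF alone, at percentile 4.57.

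At Foxa1, 6 of 12 regions were in all lists, and the other 6 were in 1 or 2 lists. Of the shared regions, 5 lay between 2.8 kb upstream and 11 kb downstream of the 5′ end. The 6th, 29.3 kb upstream at a start of Ttc6, a neighbouring gene with tetratricopeptide repeats, was the strongest, with percentiles 90.4, 92.9 and 94.3. The site 11 kb downstream, beyond the 3′ end of the gene, ranked at 56.9, 67.7 and 77.0 in SOX2-ON, SOX2-OFF and CEpiLC. It was 1677, 2507 and 2646 bp wide, so both measures were lowest in SOX2-ON.

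Upstream of Foxa1, the site at 25.3 kb, whose sequence is given above, had a peak of 1336 bp at percentile 84.8 in SOX2-OFF and one of 1096 bp at 78.9 in CEpiLC, and none in SOX2-ON. The closest SOX2-ON peak was 2942 bp away, at the Ttc6 start. Of SOX2-OFF regions at percentiles 80 to 90, 5.62% were missing from SOX2-ON, and 1 of 12 around the 6 genes. The converse was seen 31.0 kb downstream, where SOX2-ON had a peak of 797 bp at percentile 77.7 and the closest peak of SOX2-OFF and of CEpiLC was 18447 and 18293 bp away. In SOX2-ON, 20.6% of regions at percentiles 70 to 80 were in no other list, and 1 of 9 around the 6 genes. The other regions of Foxa1 in 1 list only were at percentile 51.6 or lower.

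The 3 largest differences in rank between SOX2-ON and SOX2-OFF were all at Foxa2. This gene had 9 peaks in SOX2-ON and 13 each in SOX2-OFF and CEpiLC, over 16 regions, while the median coding gene had 11, 11 and 12. There was no region in SOX2-ON alone, against 3 in SOX2-OFF alone and 3 in CEpiLC alone. These classes held 16.9%, 15.1% and 20.3% of all merged regions, or 16.6%, 13.3% and 19.8% without chromosomes 6, 8 and 11. The 7 regions in all lists lay from 35.4 kb upstream to 16.8 kb downstream. Among them the sites at 1.8 and 6.3 kb upstream and 7.3 kb downstream, with the start, were at percentile 76.9 or higher in every list.

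At 13.8 kb upstream of Foxa2, the percentiles were 0.634, 71.9 and 50.2 in SOX2-ON, SOX2-OFF and CEpiLC. SOX2-OFF had a peak of 2271 bp, and the SOX2-ON peak of 1101 bp covered the part of it farther from Foxa2 and ran past its edge. CEpiLC was split into a stronger peak of 902 bp in the nearer part and a weak one of 306 bp, at percentile 0.407, in the farther part. The printed sequence, with its TCF/LEF match, lay in the nearer part, inside the SOX2-OFF peak and the stronger CEpiLC peak and outside the SOX2-ON peak. The rank difference at this site therefore included a difference in position.

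The other sites of Foxa2 with large shifts did not all go the same way. At 41.6 kb downstream the percentiles were 29.5 in SOX2-ON and 80.1 in SOX2-OFF, with widths of 222 and 706 bp, and CEpiLC had no peak. Of SOX2-OFF regions at percentiles 80 to 90, 3.88% had no peak in CEpiLC, and 1 of 12 around the 6 genes. At 18.9 kb upstream the percentiles were 78.2 in SOX2-ON and 25.6 in SOX2-OFF, with 822 and 276 bp, and again no peak in CEpiLC. These opposite shifts occurred around 1 gene and in the same pair of libraries. The site 35.7 kb downstream was absent from SOX2-ON, weak in SOX2-OFF at 24.7 and at 70.6 in CEpiLC, although the CEpiLC peak was only 190 bp wide. At 33.3 kb downstream SOX2-OFF alone had a peak, of 226 bp at percentile 65.2. Of SOX2-OFF regions at percentiles 60 to 70, 9.61% were in no other list, and 2 of 10 around the 6 genes. SOX2-OFF also ranked highest at 35.4 kb upstream, with 48.5, 70.8 and 50.9, and at 16.8 kb downstream, with 71.5, 83.4 and 73.0.

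The window of Foxa3 was dominated by other genes. Of its 17 regions, 14 overlapped an exon of some gene and 7 lay at a start of another gene, among them Sympk, Irf2bp1, Mypop and Rsph6a. Regions in all lists numbered 10, and 4 of them were above percentile 80 in every list, at 32.1 and 19.6 kb downstream, 30.9 kb upstream and the promoter itself. The 32.1 kb site, at the start of Mypop, had 97.5, 95.2 and 89.97. Within an intron of Sympk, 6.1 kb upstream of Foxa3, the percentiles were 41.1, 67.0 and 78.1 in SOX2-ON, SOX2-OFF and CEpiLC, while the widths ran the other way, with 546, 415 and 197 bp. The 7 regions that were not in all lists were at percentile 62.5 or lower.

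Sox17 lay among intergenic sites that were mostly weak. Of 13 regions, 3 were in all lists, the pair of start regions and a site 47.0 kb upstream with percentiles 82.2, 61.7 and 83.2, where SOX2-OFF was the lowest. Both engineered states, and not CEpiLC, had a peak at 40.5 kb upstream, with percentiles 54.8 and 74.8 and widths of 1175 and 1485 bp, and at 23.0 kb downstream, with 71.3 and 64.6 and widths of 777 and 1157 bp. Of SOX2-OFF regions at percentiles 70 to 80, 12.8% were absent from CEpiLC, and 1 of 5 around the 6 genes. Conversely, 4 of the 13 regions were in CEpiLC alone (background 20.3%, or 19.8% without chromosomes 6, 8 and 11). None of these was above percentile 37.3.

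At Hhex the promoter was the only 1 of 10 regions in all lists. The window held 4, 6 and 5 peaks in SOX2-ON, SOX2-OFF and CEpiLC, the lowest total of the 6 genes. SOX2-ON and SOX2-OFF shared a site 34.0 kb downstream, at 76.2 and 63.7, with widths of 1622 and 988 bp, in an exon of the transcript AC137605.3. SOX2-ON alone had a peak 33.5 kb upstream, of 539 bp at percentile 64.9, in an intron and within 1 kb of a start of Kif11, a mitotic kinesin. SOX2-OFF alone had 1 at 16.2 kb upstream, of 287 bp at 60.6. The pair of sites at 11.7 and 8.0 kb upstream that SOX2-OFF and CEpiLC shared were weak, at 23.8 and 37.3 and at 19.2 and 0.571.

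Hnf4a, the longest of the 6 genes, had 25 regions, with 18, 13 and 21 peaks in SOX2-ON, SOX2-OFF and CEpiLC. SOX2-OFF had the fewest peaks and no region of its own (background 15.1%, or 13.3% without chromosomes 6, 8 and 11). SOX2-ON had 4 (background 16.9%, or 16.6%) and CEpiLC 4 (background 20.3%, or 19.8%). The strong sites were outside the gene, at 34.3 kb upstream by the start of Fitm2, with 97.2, 96.5 and 97.7, at 25.4 kb upstream, with 86.8, 91.0 and 90.1, and at 95.6 kb downstream by the start of Ttpal, with 94.5, 94.5 and 96.6. Inside it, a pair of intronic sites at 25.5 and 28.3 kb was present in every list, with 64.1, 68.2 and 81.0 and with 79.8, 86.5 and 81.7. These lie between the distal and the downstream promoters.

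CEpiLC alone had a peak 45.8 kb into Hnf4a, of 511 bp at percentile 81.5, named as the strongest region of 1 list alone at this gene. Of CEpiLC regions at percentiles 80 to 90, 1.2% were in no other list, and 1 of 13 around the 6 genes. The peak overlapped an exon beyond the downstream promoters, and the printed sequence holds a GATA match. At 80 kb downstream, past the 3′ end, CEpiLC stood at 74.3 and SOX2-ON at 33.2, with no peak in SOX2-OFF. At 104.5 kb downstream, in Ttpal, SOX2-ON was at 8.02 and CEpiLC at 63.5, again with none in SOX2-OFF. A region 12.7 kb upstream, at a start of R3hdml, went the other way, with 64.5, 44.5 and 19.6 in SOX2-ON, SOX2-OFF and CEpiLC. The CEpiLC peak at 19.6 did not touch the SOX2-ON peak, and the CEpiLC peak that overlapped it was at 15.3. The rank difference here thus included a difference in position.

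**Figure D2:**
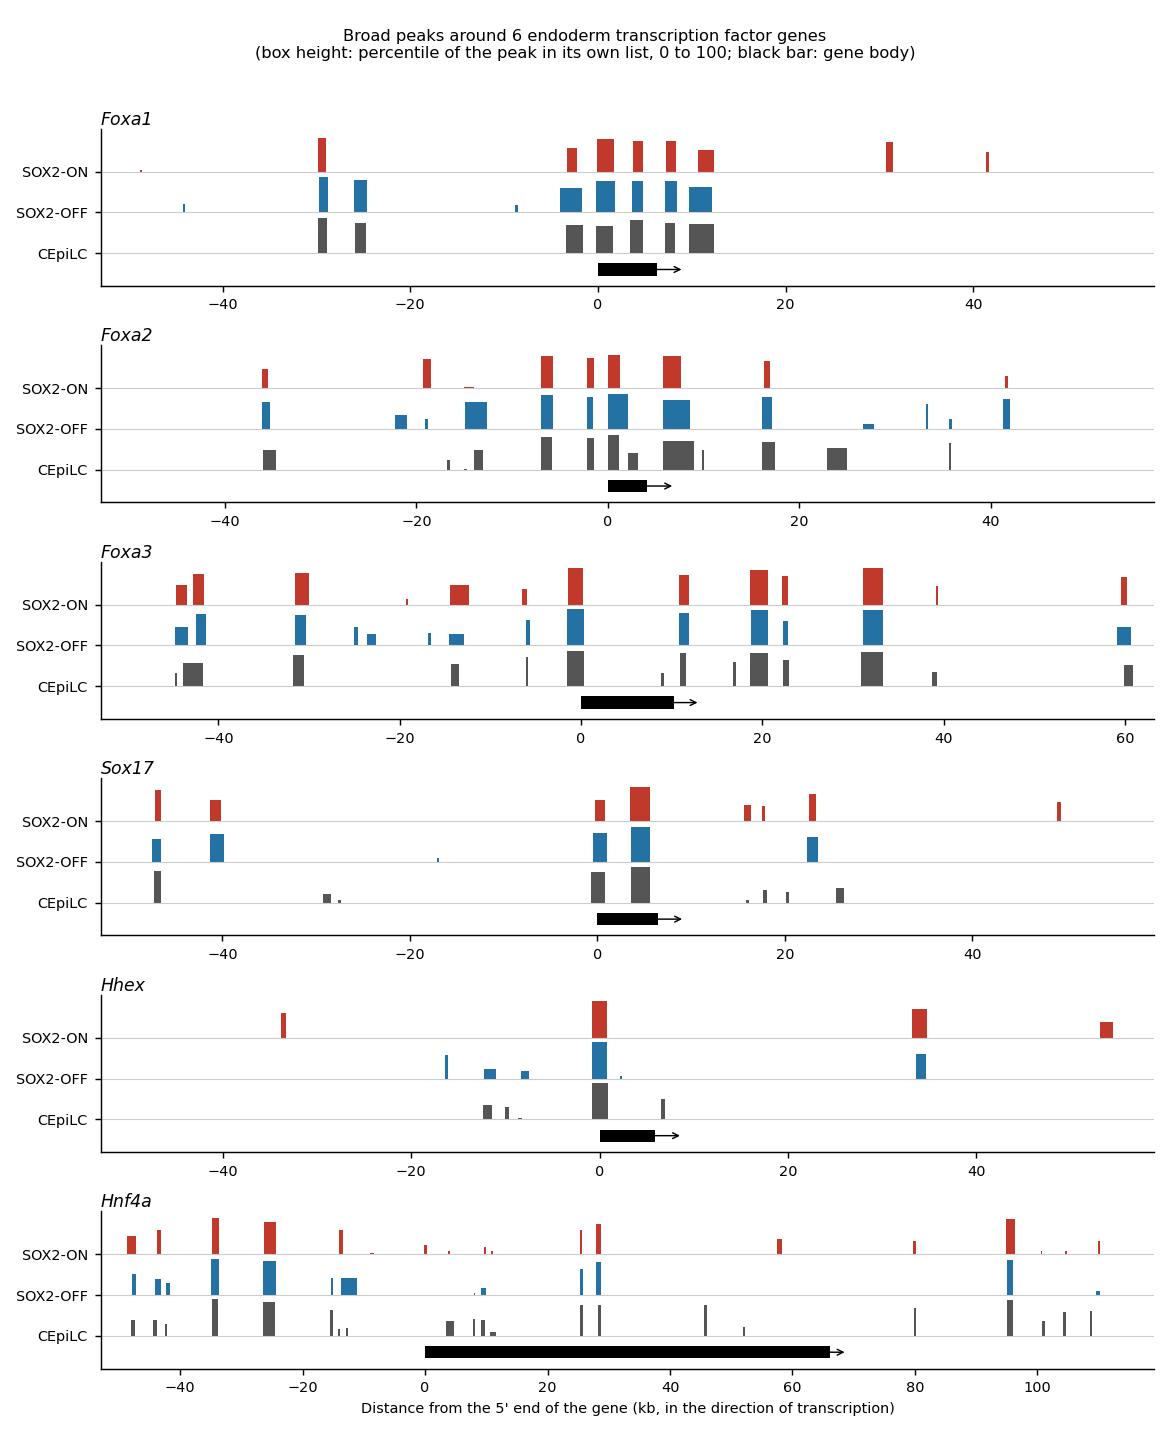
Broad peaks around each gene in SOX2-ON (red), SOX2-OFF (blue) and CEpiLC (grey), by distance in kb from the 5′ end in the direction of transcription, with the gene body as a black bar. The height of a box is the percentile of the peak in its own list. The sites next to Foxa1 and Foxa2 recur in all rows, the site 25.3 kb upstream of Foxa1 is missing from the SOX2-ON row, and Hhex has only its promoter in common.

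Over the regions shared by a pair of lists, ranks differed in both directions. For SOX2-ON and SOX2-OFF the median difference in percentile over 42 shared regions was −1.13, beside −1.65 over all shared regions of the genome. It was −1.51 over 43 regions for SOX2-ON and CEpiLC, beside −1.64, and −0.78 over 43 regions for SOX2-OFF and CEpiLC, beside 0.15. A difference of at least 20 percentile points was counted in each direction. SOX2-ON was higher than SOX2-OFF in 6 of 42 regions (background 9.94%, or 9.23% without chromosomes 6, 8 and 11) and lower in 6 (background 14.9%, or 13.8%). It was higher than CEpiLC in 4 of 43 (background 11.4%, or 10.6%) and lower in 8 (background 16.5%, or 16.6%). SOX2-OFF was higher than CEpiLC in 3 (background 12.1%, or 11.2%) and lower in 6 (background 10.7%, or 10.6%). Of these 6 shares, 3 were above the background and 3 below it with all chromosomes counted, and 4 above and 2 below without chromosomes 6, 8 and 11.

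Widths were compared as a ratio for each region shared by a pair of lists. The median ratio of SOX2-ON to SOX2-OFF was 0.919, beside 0.916 over all shared regions of the genome. For SOX2-ON to CEpiLC it was 0.911, beside 1.02, and for SOX2-OFF to CEpiLC 1.09, beside 1.14. Regions at least 2 times as wide in SOX2-OFF as in SOX2-ON numbered 6 (background 16.4%, or 14.4% without chromosomes 6, 8 and 11) and the reverse 2 (background 6.57%, or 6.19%). Between SOX2-ON and CEpiLC there were 4 in favour of SOX2-ON (background 14.7%, or 12.5%) and 4 in favour of CEpiLC (background 9.3%, or 9.2%), and between SOX2-OFF and CEpiLC there were 4 (background 19.7%, or 17.6%) and 1 (background 5.12%, or 4.68%). In 1 region, 43.8 kb upstream of Hnf4a, the SOX2-ON and CEpiLC peaks had no base in common and were joined through the SOX2-OFF peak. At the largest difference, 12.7 kb upstream of Hnf4a, SOX2-OFF covered 2653 bp where SOX2-ON covered 774 bp and CEpiLC 790 bp.

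**Figure D3:**
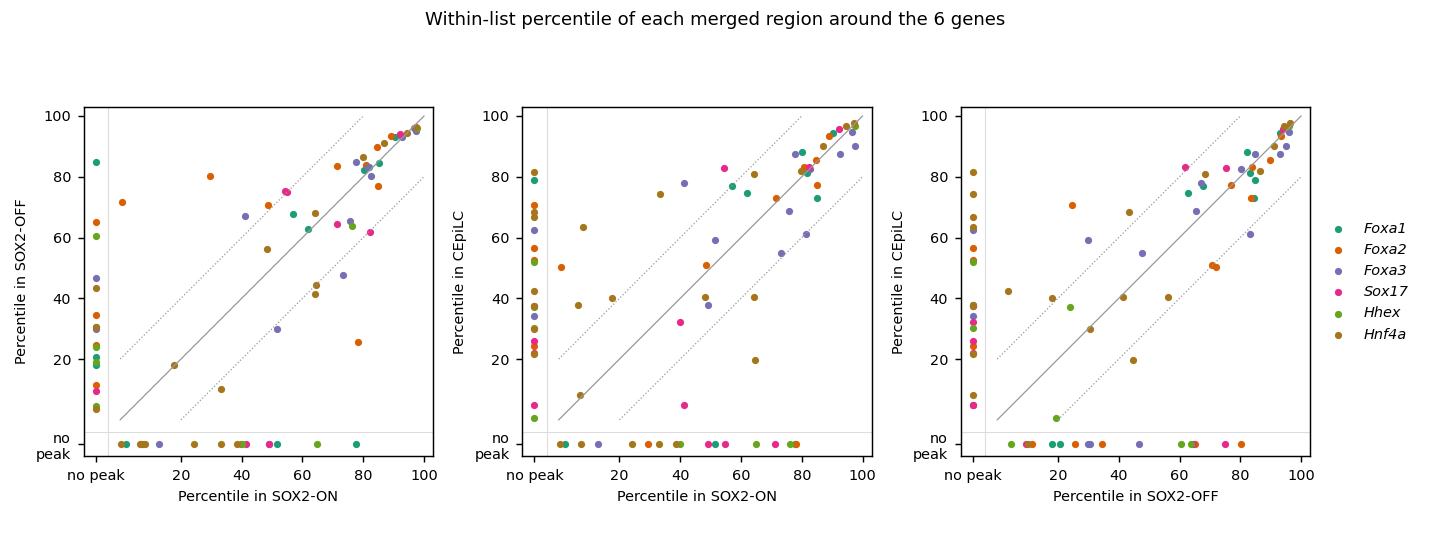
Percentile of each merged region around the 6 genes in 1 list against another, coloured by gene, with regions that lack a peak in a list placed at the margin. The solid line marks equal percentiles and the dotted lines a difference of 20 points. The point of a Foxa2 region at 0.634 in SOX2-ON and 71.9 in SOX2-OFF lies far from the solid line.

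Of the 93 regions, 34 were intergenic, 18 intronic and 41 overlapped an exon. A start of the gene itself lay in or within 1 kb of 8 regions and a start of another gene in 19. The regions were richer in G and C than the rest, with a median of 52.5% in the central 200 bp against 49% for all regions. Exact matches on both strands were searched for 8 motifs in these 200 bp. The GATA motif, written AGATAAG, was found in 6 regions (6.45%, interval 2.99 to 13.4%), beside 2.96% of all regions. These were 2 at Foxa3 and 1 each at Foxa1, Foxa2, Hhex and Hnf4a. TCF/LEF (CTTTGAT) was found in 4, of which 3 were at Foxa2 and 1 at Hhex, beside 3.33%. Forkhead (TGTTTAC) was found in 1, 47.0 kb upstream of Sox17, beside 2.63%, and SOX (ACAATGG) in 2, at Sox17 and Hnf4a, beside 3.46%. CDX (TTTATTG) was in 3 (background 3.09%), T-box (AGGTGTGA) in 2 (background 1.09%), and FOXH1 (AATCCACA) and POU (ATGCAAAT) in none (backgrounds 0.775% and 1.28%). The lower bound for GATA was just above its background, and the intervals of the other motifs included theirs. A match describes letters and not binding, and 8 motifs were searched. In the RefSeq promoter sequences of GRCm38, of 300 bases around a start, 5 of the 6 genes were matched, Sox17 not being in that table. A promoter of Foxa2 held the TCF/LEF motif (3.73% of all promoters) and that of Foxa1 the forkhead motif (3.65%). The 2 promoters of Hnf4a held 4 CG dinucleotides each, below the median of 7 over all promoters, while Foxa1 had 26, Foxa3 22, Hhex 37 and the 3 of Foxa2 between 12 and 23. Hnf4a, the gene without a start open in all lists, had the fewest CG dinucleotides among the 5 matched, and a link between its CG content and its starts was not tested.

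Other genes of the endoderm programme were described in the same way, as 8 upstream regulators (Eomes, Mixl1, Gsc, Lhx1, Gata4, Gata6, Sox7 and Prdm1) and 6 secreted or differentiated products (Cer1, Dkk1, Trh, Ttr, Afp and Apoa1). All 14 had a peak at 1 or more starts in SOX2-ON and 13 in each of SOX2-OFF and CEpiLC, where Ttr, which encodes the thyroxine carrier transthyretin, lacked it. The peaks counted for Afp lay at starts inside the gene, and its 5′ start had none in any list. The 5′ start of Gata4 had a peak only in SOX2-ON, at percentile 0.48. Ttr stood at percentile 50.3 in SOX2-ON. The start of Cer1, a secreted Nodal and BMP antagonist, was at 75.1, 47.9 and 47.2, highest in SOX2-ON. That of Eomes, a T-box regulator of endoderm, was at 91.6, 90.6 and 88.6, also highest in SOX2-ON. Mixl1, a homeobox gene of the streak, was at 87.8, 91.2 and 90.3, lowest in SOX2-ON. The windows of the 14 genes held 140, 151 and 155 peaks, and of these Lhx1, on chromosome 11, had 10, 10 and 21 in SOX2-ON, SOX2-OFF and CEpiLC. Of the SOX2-ON regions of the 14 genes, 28.1% were absent from SOX2-OFF, and of those of SOX2-OFF 34.9% were absent from SOX2-ON, beside 30% and 30% for the 6 factors.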

How the data were processed

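ATAC-seq was analysed in 3 samples, 1 per group, and the labelled genotype and doxycycline schedule gave the groups. In the pipeline the authors used, nf-core/atacseq, reads were trimmed (Trim Galore), mapped to mm10 (BWA) and cleared of mitochondrial alignments, and MACS2 then called broad peaks in each sample. The deposited fold enrichment of each peak is the ratio of its pileup to the local background, and the deposited −log10 p and −log10 q come from the same caller, with every list ending at a q of 0.1. The deposited score was not used. How many preparations entered a sample and how cut positions were shifted are not given in the sources used here, so peak edges are approximate.

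The 6 genes and all lists, motifs and thresholds were chosen with earlier results of these data known. Of the list of other endoderm genes, 1 is not reported here. Gene bodies came from GENCODE M21 on GRCm38. Touching peaks were merged, width was the summed length of the peaks of a list in a region, and rank was by −log10 p. Called differences were 20 percentile points or a width ratio of 2. Named regions were every promoter region, the strongest region of 1 list alone per gene and, for each pair of lists, the 3 largest percentile differences and the 3 strongest regions that the other list lacked. Regions beyond this rule were described for each gene after their values were seen. As regions were picked by their strength or by such differences, the genome shares beside them do not measure how unusual they were. With 1 sample per group no test was possible, and Wilson intervals (scipy 1.17.1) cover counting error only, as PCR reads are not independent molecules. Libraries were made from 50000 cells with at most 12 PCR cycles. Sequences were read with pysam 0.24.0 and tables made with pandas 2.3.3. Merging, ranking and overlap were tested on simulated data.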

Additional observations from a re-analysis of the deposited data

How the results depend on the processing

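Counts depended on the window and on how many weak peaks were kept, and 45 of 91 recomputed values moved by more than 1.5 times, for 22 results under 10 alternatives. A window of 20 kb gave 35, 35 and 47 peaks in SOX2-ON, SOX2-OFF and CEpiLC, and one of 100 kb gave 102, 110 and 119. With only the strongest 50000 peaks of each list there were 33, 35 and 35, and with a −log10 q of at least 2 there were 48, 44 and 43, so that CEpiLC then had the fewest instead of the most. Regions in all 3 lists numbered 64 with 100 kb, 23 among the strongest peaks, 22 without starts of other genes and 19 without the starts of any gene, an alternative chosen after seeing the data.

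Regions of SOX2-ON absent from SOX2-OFF numbered 9 with 20 kb, 27 with 100 kb, 11 with the q filter and 7 among the strongest peaks, and those of SOX2-OFF absent from SOX2-ON 9 with 20 kb, 35 with 100 kb, 7 with the q filter and 9 among the strongest. Regions of SOX2-ON absent from CEpiLC numbered 6 with 20 kb, 30 with 100 kb, 16 with the q filter and 9 among the strongest. Those of CEpiLC absent from SOX2-ON numbered 15 with 20 kb, 40 with 100 kb, 12 with the q filter and 11 among the strongest. Regions of SOX2-OFF absent from CEpiLC numbered 7 with 20 kb, 31 with 100 kb, 10 with the q filter and 8 among the strongest. Those of CEpiLC absent from SOX2-OFF numbered 16 with 20 kb, 33 with 100 kb, 10 with the q filter and 8 among the strongest. The cause of these changes was not tested.

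Regions at least 20 percentile points higher in SOX2-ON than in CEpiLC numbered 7 when ranked by fold enrichment and 2 when ranked without chromosomes 6, 8 and 11, and those higher in SOX2-OFF than in CEpiLC numbered 1 without those chromosomes, and the cause was not tested. Width ratios kept their direction with the widest peak of a region. Leaving out a replicate was not run, since each group had 1 sample. No paired analysis was possible because the groups share a single replicate number and no test was run. The depth of the libraries is unknown, so the absence of a weak peak from a list is the least certain of the values given here.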
